A study of Mus musculus with 5 samples.

Results

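The genes described here encode the proteins of the cytosolic ribosome. They were picked by symbol: Rpl or Rps followed by a number and at most a short suffix, the 3 stalk genes Rplp0, Rplp1 and Rplp2, and Rpsa, with pseudogene symbols and S6 kinase genes left out. Of the 27998 genes in the matrices, 84 symbols met this rule, and 81 of them had at least 1 unique molecular identifier (UMI, a tag that marks 1 captured RNA molecule) in every library. These 81 were 49 large subunit (Rpl) and 32 small subunit (Rps) genes by symbol. Among them Rpl6l had no coding length in the annotation used, so it is not shown here to encode a protein. The other 3, the paralogs Rpl3l, Rpl10l and Rpl39l, had no UMI in at least 1 library and at most 4 in any.

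Single-cell RNA of the ileal epithelium, the lining of the distal small intestine, was captured in droplets with 3' chemistry. All mice were C57BL/6 and 8 to 12 weeks old. The 3 sham libraries come from mice with sham surgery and the 2 resection libraries from mice with small bowel resection, the removal of a length of small intestine. The sources used here give neither the time between operation and harvest, nor the length removed, nor whether a library holds 1 mouse or several. Without that, the p-values below measure the spread between libraries only, which may be partly technical.

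A ribosome has a large and a small subunit, and each is built from ribosomal RNA and 1 copy of most ribosomal proteins, so the genes for these proteins tend to be expressed together. Their mRNAs commonly begin with a run of pyrimidines, the 5' terminal oligopyrimidine tract, through which growth signals such as mTOR control their translation. In the intestine, stem and progenitor cells divide at the base of the crypt, and their daughters become absorptive enterocytes while moving up the villus, where they are shed.

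The files held 19404 cells, 1402 to 7233 per library, with 11749000 to 41281643 UMIs per library and medians of 4541 to 6239.5 UMIs per cell. After filtering and removal of 720 likely doublets, 18235 cells remained in 20 clusters. Any pair of libraries shared only 6 to 47 cell barcodes. Sham 1 and resection 1 stood apart from sham 2, sham 3 and resection 2: immature enterocyte-like cells of the first pair made up cluster 7 and those of the other 3 libraries cluster 0, and Paneth-like cells were split in the same way. This division crosses the surgery groups, so surgery differences in share are also given inside each set for most classes, and gene counts also with the set as a term in the fit. Copies with Rpl or Rps symbols were left out of the clustering, but copies under other symbols were not. The leading genes of cluster 7 included the ribosomal protein pseudogene copies Rpl13-ps3, Rpl27-ps3, Rpl36-ps3 and Rps18-ps3, which are taken up at the end. The summed enterocyte marker level in enterocyte-like cells was 56534 to 103067 CPM, the UMIs of a gene scaled to a fixed library total. These markers also named the clusters, so their level cannot check the labelled tissue. The summed level of 5 stromal markers was at most 0.389 CPM over all epithelial cells, that of 3 endothelial markers at most 1.17 CPM and that of 5 B and plasma cell markers at most 1.77 CPM. The 5 myeloid markers summed to 45.3 CPM in sham 1 and to 1.76 to 12.0 CPM in the other 4 libraries. This signal lay mostly in Paneth-like cells, with 103 CPM in sham 1 and 11.8 to 68.0 CPM in the other 4. It was at most 2.16 CPM in enterocyte-like and 4.15 CPM in goblet-like cells. T cell-like cells (33 to 250 per library) were kept out of the epithelial classes.

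The ribosomal protein genes took up the largest share of RNA in the crypt classes and a much smaller one in enterocyte-like cells, in every library. In crypt progenitor-like cells, the stem-like and cycling-like clusters together, they held 18.3%, 24.2% and 25.2% of UMIs in sham 1 to 3 and 20.5% and 24.8% in resection 1 and 2. In immature enterocyte-like cells they held 14.6%, 18.7% and 19.5% in the sham libraries and 16.4% and 19.6% in the resection libraries. In enterocyte-like cells the share was 6.23%, 7.09% and 8.48% in sham and 3.68% and 6.00% in resection. No library's enterocyte-like value came near any library's immature value.

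Taken within each library, the crypt progenitor-like share was 4.84 percentage points above the immature enterocyte-like share (SD 0.871, n = 5 libraries), and the immature share was 11.5 points above the enterocyte-like share (SD 1.99). Both differences had the same sign in 5 of 5 libraries. The exact two-sided sign-flip permutation test gave p = 0.0625 for each, which is the smallest value that 5 libraries allow, and Benjamini-Hochberg adjustment over 3 such differences left it at 0.0625. The stem-like cluster alone, with only 15 cells in sham 1 and therefore not tested, had the highest mean share, 25.3% (SD 2.56, n = 5).

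**Figure D1:**
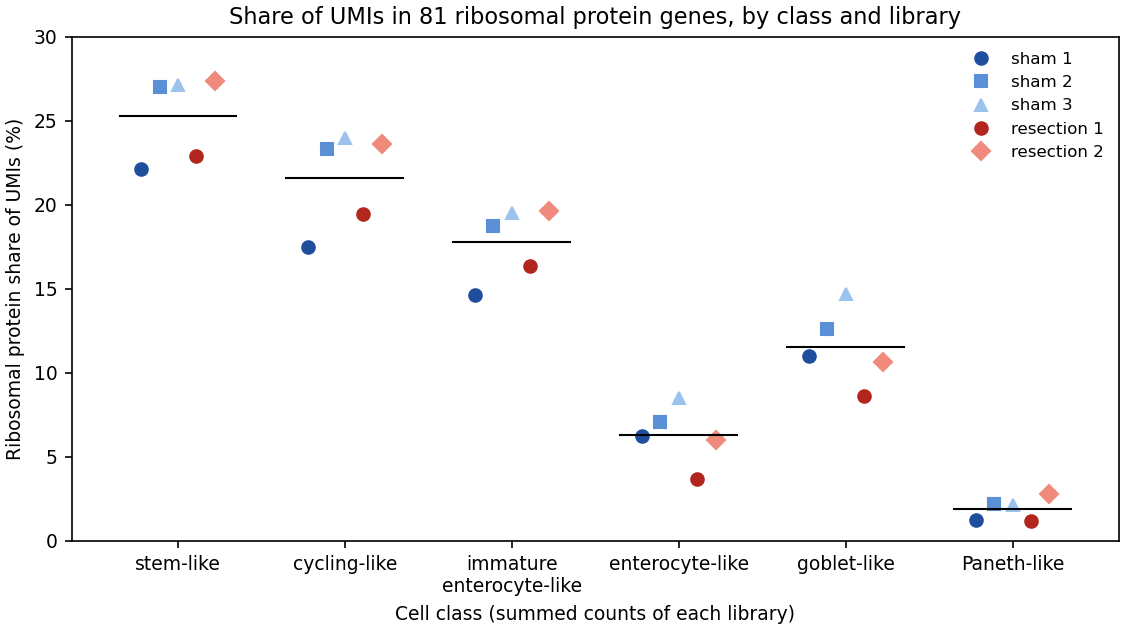
Share of UMIs in the 81 ribosomal protein genes (vertical axis, percent) for 6 cell classes (horizontal axis); each point is 1 library and the black line is the mean of 5 libraries. Mean shares run from 25.3% in stem-like cells to 1.92% in Paneth-like cells, and sham 1 and resection 1 lie lowest in the stem-like, cycling-like, immature enterocyte-like and Paneth-like classes.

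The lower share was also a lower number of molecules. The median immature enterocyte-like cell carried 780, 962 and 1306 ribosomal protein UMIs in the sham libraries and 1001 and 1063 in the resection libraries. The median enterocyte-like cell carried 314, 252 and 471 in sham and 134 and 180 in resection. The total per cell differed far less: median totals were 5163 to 6493 UMIs in immature enterocyte-like cells and 4144 to 5879 in enterocyte-like cells.

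The secretory classes differed from each other. Goblet-like cells, which make mucus, held 10.99%, 12.6% and 14.7% ribosomal protein UMIs in sham and 8.64% and 10.7% in resection. Paneth-like cells, the crypt cells that release antimicrobial defensins, held only 1.24%, 2.20% and 2.15% in sham and 1.19% and 2.81% in resection. Beside this low share, the 50 most abundant other genes took 78.6% to 84.8% of the UMIs of Paneth-like cells. The median Paneth-like cell still carried 139.5 to 226 ribosomal protein UMIs, which overlaps the range of enterocyte-like cells.

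To follow the share without class boundaries, each cell of the stem-like to enterocyte-like clusters (16212 cells) was scored by 11 crypt and 12 villus-tip landmark genes, ranked within its library and placed in 1 of 5 equal bins, bin 1 at the crypt end and bin 5 at the villus end. No ribosomal protein gene, nor any pseudogene copy with such a symbol, was used for the clusters or the score. A bin is a range of this score, not a cell type, and 16.3% to 19.6% of cells per library lay within 0.02 score units of a boundary. In bin 1 the share was 15.4%, 20.01% and 24.4% in sham 1 to 3 and 18.2% and 21.2% in resection 1 and 2. In bin 5 it was 6.08%, 5.95% and 7.49% in sham and 3.01% and 4.35% in resection. The drop was 14.5 points (SD 3.13, n = 5, exact sign-flip permutation p = 0.0625). With 10 bins in place of 5, the share fell at 9 of 9 steps in sham 2, sham 3, resection 1 and resection 2 and at 6 of 9 in sham 1, and most of the drop came in the lower part of the score. In resection 2, for example, it went from 24.4% in the first of the 10 bins to 8.57% in the fifth and 3.73% in the last.

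**Figure D2:**
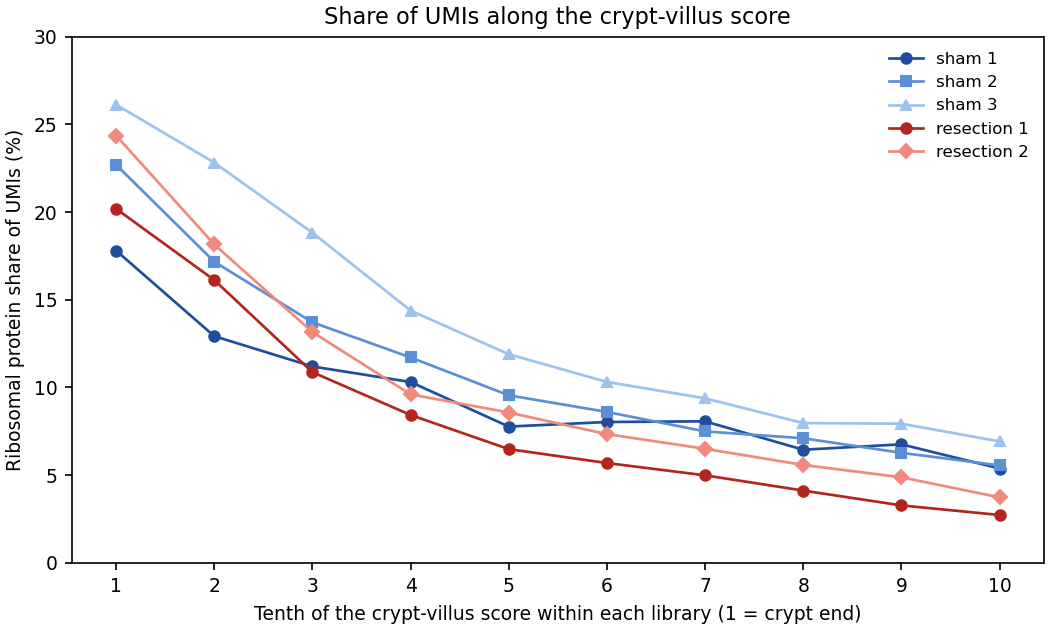
Ribosomal protein share of UMIs (vertical axis, percent) in 10 equal bins of the crypt-villus score (horizontal axis, 1 is the crypt end); each line is 1 library. The first bin lies between 17.8% and 26.1% and the last between 2.73% and 6.92%, and both resection libraries lie below the 3 sham libraries from bin 6 on.

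Gene by gene, almost the whole set moved together. With edgeR's quasi-likelihood test on counts summed per library and class, 80 of the 81 genes were higher in immature enterocyte-like than in enterocyte-like cells at an adjusted p under 0.05, where 34.5% of all 9681 genes tested were called in that direction and 70.4% in either. Their median log2 fold change was 1.21 (a fold of 2.31), against -0.01 for all genes. In bin 1 against bin 5, 80 of 81 were again higher (36.4% of all genes called in that direction, 72.2% in either), with a median log2 fold change of 1.54. The step from crypt progenitor-like to immature enterocyte-like cells was small: 73 genes were higher in the crypt class and 2 lower (31.3% and 32.9% of all genes called, 64.2% in either direction), with a median of 0.18. These values are relative to the TMM scaling, which sets the bulk of genes near 0. Without TMM the median of all genes was 0.32 between immature and enterocyte-like cells, 0.44 between bins 1 and 5 and 0.15 between crypt and immature cells, and that of the ribosomal protein genes was 1.54, 1.97 and 0.34. On plain CPM, all 81 genes were higher in immature than in enterocyte-like cells in all 5 libraries, as were 48.7% of all genes, and all 81 were higher in bin 1 than in bin 5 (49.6%). Between crypt progenitor-like and immature cells, 78 were higher in all 5 libraries (35.7% of all genes), with Rpl10, Rpl7l1 and Rps27l the exceptions.

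The UMI ratio of large to small subunit genes was 1.27 to 1.42 in crypt progenitor-like cells and 1.33 to 1.46 in enterocyte-like cells, higher in enterocyte-like cells in 5 of 5 libraries. It was highest in sham 1 and resection 1 in both classes. Log2 fold changes of single genes between immature and enterocyte-like cells ran from 1.93 down to -0.01, with standard errors of at most 0.15.

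The steepest decline was in Rpl12, a large subunit protein of the stalk base. Its level was 915, 920 and 1000 CPM in sham immature enterocyte-like cells and 936 and 1185 CPM in resection. In enterocyte-like cells it was 253, 211 and 281 CPM in sham and 109 and 222 CPM in resection, so the classes did not overlap (log2 fold change 1.93, SE 0.15, edgeR adjusted p = 2.44e-07).

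Rps2, a small subunit protein of the mRNA entry region, followed with 2029, 2958 and 3844 CPM in sham immature enterocyte-like cells and 2878 and 3595 CPM in resection. Its enterocyte-like levels were 634, 666 and 1036 CPM in sham and 374 and 701 CPM in resection (log2 fold change 1.87, SE 0.14, edgeR adjusted p = 2.43e-07). The core large subunit protein Rpl3 (1.75) and the S6 kinase substrate Rps6 (1.67) came next by log2 fold change. Rpl12 made up 0.561% of ribosomal protein UMIs in immature enterocyte-like cells and 0.341% in enterocyte-like cells, and was lower in the latter in 5 of 5 libraries.

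At the other end stood Rps27l, a paralog of Rps27 known as a p53-responsive gene, the 1 gene not called between these classes or between bins 1 and 5. Its level was 541, 1044 and 1126 CPM in sham immature enterocyte-like cells and 711 and 1076 CPM in resection. In enterocyte-like cells it was 439, 839 and 1056 CPM in sham and 457 and 892 CPM in resection. Each library was lower in enterocyte-like cells, resection 1 most, but the libraries of the classes overlapped widely, and relative to the TMM scaling the log2 fold change was -0.01 (SE 0.08, edgeR adjusted p = 0.940). Without TMM it was 0.32 and passed the threshold (edgeR adjusted p = 0.00655). As a part of all ribosomal protein UMIs, Rps27l was 0.498% (SD 0.0903, n = 5) in immature enterocyte-like cells and 1.17% (SD 0.286) in enterocyte-like cells, higher in the latter in 5 of 5 libraries.

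Its paralog Rps27 did decline. It had 2328, 3532 and 2577 CPM in sham immature enterocyte-like cells and 2550 and 1995 CPM in resection, against 1203, 1651 and 1318 CPM in sham enterocyte-like cells and 902 and 777 CPM in resection (log2 fold change 0.84, SE 0.09, edgeR adjusted p = 6.13e-06). The other measured paralog pairs both fell along the axis: Rpl22 by 1.32 and Rpl22l1 by 0.96, Rpl7 by 0.97 and Rpl7l1 by 0.77 (log2 fold changes, immature against enterocyte-like). Differences between paralogs were not tested. Rps14, Rpl7l1, Rpl41 and Rpl10 had the smallest changes after Rps27l, with log2 fold changes of 0.67, 0.77, 0.79 and 0.80. The stalk genes, whose products recruit elongation factors, changed by 1.25 (Rplp0), 1.04 (Rplp1) and 1.39 (Rplp2), where the quartiles of the set were 1.08 and 1.41.

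**Figure D3:**
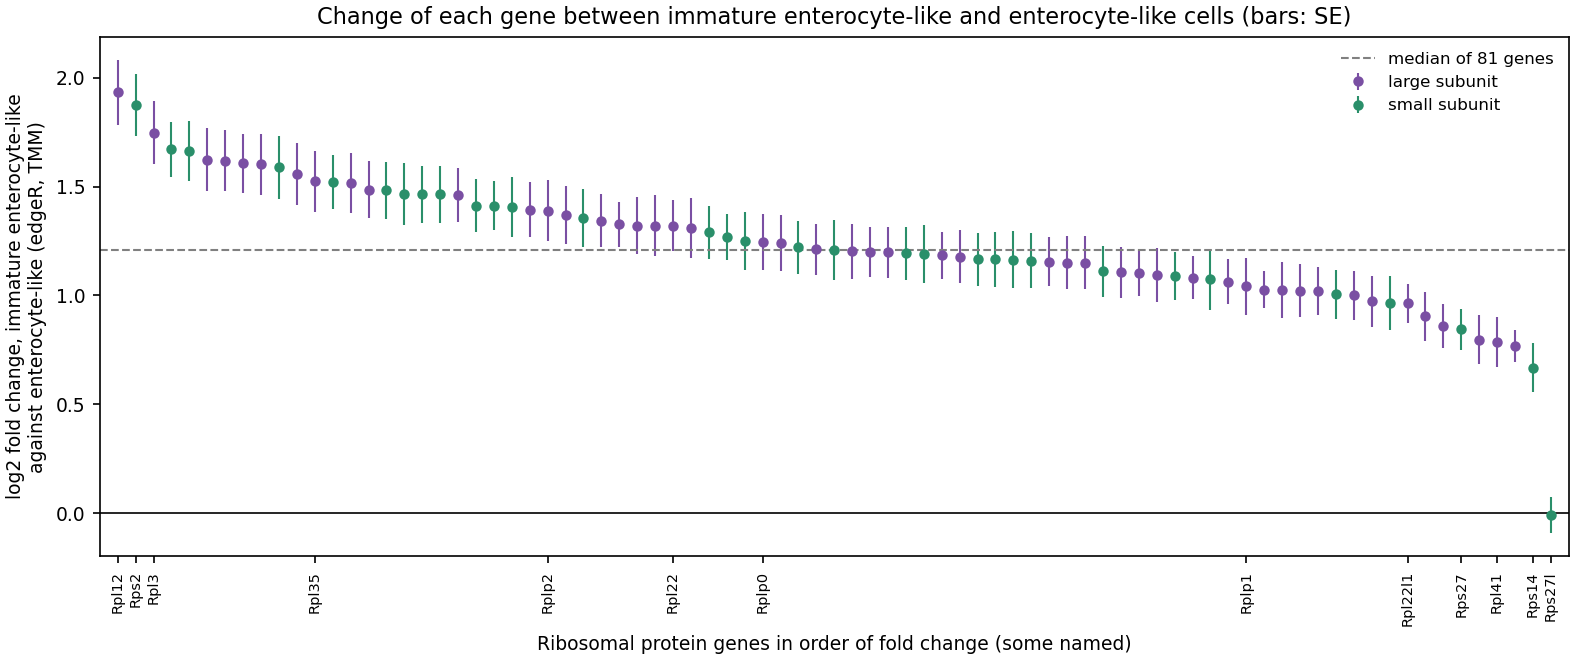
Log2 fold change of each of the 81 genes between immature enterocyte-like and enterocyte-like cells (vertical axis, edgeR with TMM; bars are standard errors), ordered from high to low (horizontal axis, some genes named) and coloured by subunit. The dashed line is the median of 1.21, and only Rps27l, at -0.01, lies near 0.

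**Figure D4:**
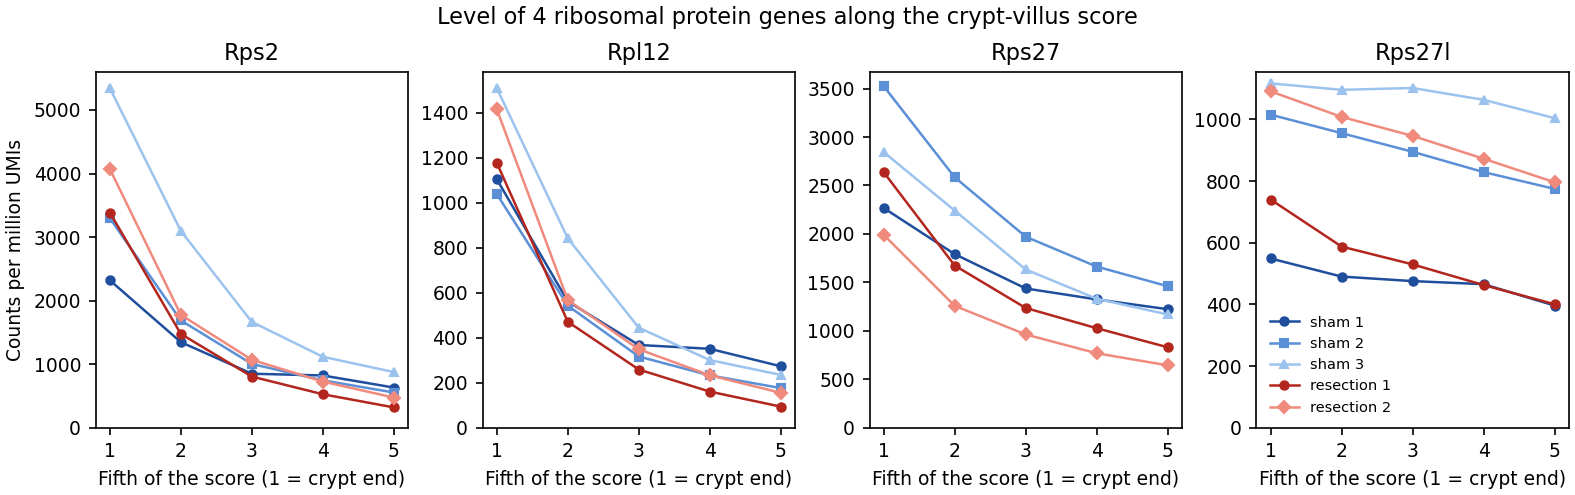
Level in CPM (vertical axis) of Rps2, Rpl12, Rps27 and Rps27l in 5 equal bins of the crypt-villus score (horizontal axis, 1 is the crypt end); each line is 1 library. In sham 3, Rps2 goes from 5342 to 877 CPM and Rps27l from 1117 to 1004 CPM, and sham 1 and resection 1 are the lowest lines for Rps27l.

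In the step from crypt progenitor-like to immature enterocyte-like cells, Rpl12 had the largest value (log2 fold change 0.47, crypt class against immature). The 2 genes called lower in the crypt class were Rps27l (-0.14, SE 0.04, edgeR adjusted p = 0.00258) and Rpl10 (-0.13, SE 0.03, edgeR adjusted p = 0.00136). Both calls rest on the TMM scaling: without it no member was called lower in the crypt class. Leaving out TMM also moved the median of all genes upward, as given above.

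Promoter sequence was compared because the genes move together and pyrimidine tracts at the start are the known shared feature of their mRNAs. RefSeq start sites (GRCm38.p6) were listed for 60 of the 81 genes. The longest unbroken run of C and T on the gene's strand that touched the 5 bases on either side of the start was at least 8 bases in 24 of these 60 genes (40%), against 10.96% of all 27025 genes listed, taking the longest run where a gene had several listed starts. The genes with such a run had a median log2 fold change of 1.15 between immature and enterocyte-like cells, and the 36 without it had 1.25. The windows below show the 15 bases before and after the start of the most and least declining genes, of Rps27 beside its paralog, and of Rpl35, which had the lowest p between surgery groups in enterocyte-like cells. They lie at chr2:32961697-32961726 (Rpl12, plus strand), chr17:24720048-24720077 (Rps2, plus), chr9:66946071-66946100 (Rps27l, plus), chr3:90213634-90213663 (Rps27, minus) and chr2:39005117-39005146 (Rpl35, minus). Each window is at the first start the table lists, which for Rps27l and Rps2 lies inside the RefSeq gene span and not at its outer end. Sequences are written 5′ to 3′ on the gene's strand, and capitals mark that run.
Rpl12: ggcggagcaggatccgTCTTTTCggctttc
Rps2: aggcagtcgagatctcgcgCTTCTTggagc
Rps27l: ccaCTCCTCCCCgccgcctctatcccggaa
Rps27: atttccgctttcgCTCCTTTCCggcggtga
Rpl35: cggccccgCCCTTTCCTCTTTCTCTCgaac
The run was 7 bases in Rpl12, 6 in Rps2, 9 in both Rps27l and Rps27 and 18 in Rpl35. It lay wholly before the listed start in Rps27l, wholly after it in Rpl12 and Rps2, and spanned it in Rps27 and Rpl35. A run counted here is therefore not always part of an mRNA from that start. A run in the letters is a description and was not tested as a translation signal.

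Other parts of the translation machinery declined along the same axis. Of 32 ribosome biogenesis genes, which make and assemble ribosomal RNA and subunits, 31 were higher in immature than in enterocyte-like cells (34.5% of all genes; median log2 fold change 2.10). In crypt progenitor-like against immature cells 31 were higher (31.3% of all genes; median 1.14). Fbl, the rRNA methyltransferase fibrillarin, had 99.0, 82.9 and 133 CPM in sham immature enterocyte-like cells and 112 and 98.8 CPM in resection. Its enterocyte-like levels were 13.2, 13.5 and 16.1 CPM in sham and 8.55 and 11.02 CPM in resection (log2 fold change 2.77, SE 0.12, edgeR adjusted p = 3.39e-09). Nolc1 and Nhp2, which act in snoRNA particles, changed by 2.27 and 2.27.

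Of 21 elongation factors and other genes with similar mRNA starts, 18 were higher in immature than in enterocyte-like cells (34.5% of all genes; median 0.97), with Npm1 at 1.77, Hnrnpa1 at 1.74 and Eef1g at 1.49. Of 76 tested mitochondrial ribosomal protein genes, 70 were higher and 1, Mrps36, lower (median 0.80). Between crypt progenitor-like and immature enterocyte-like cells 12 genes of the elongation list were higher and 3 lower (Eef2, Fau and Tpt1), and 38 mitochondrial ribosome genes were higher and 7 lower, beside 31.3% and 32.9% of all genes. The median was 0.21 for the elongation list, 0.16 for the mitochondrial ribosome and 0.18 for the cytosolic ribosomal protein genes, against 1.14 for ribosome biogenesis. These medians were not tested against each other.

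Surgery groups were compared next, within each class. In crypt progenitor-like cells the ribosomal protein share was 22.6% ± 3.73 in sham (SD, n = 3) and 22.6% ± 3.04 in resection (n = 2), and in immature enterocyte-like cells 17.6% ± 2.64 and 18.0% ± 2.29. In enterocyte-like cells it was 7.27% ± 1.14 in sham and 4.84% ± 1.64 in resection, with both resection libraries below all 3 sham libraries. The difference was -2.42 points (exact two-sided permutation p = 0.2 over 10 ways to pick 2 of 5 libraries, adjusted p = 0.7 over 7 classes; the smallest p possible was 0.1). It was -2.55 points inside the pair sham 1 and resection 1 and -1.78 points inside the other 3 libraries. Leaving out resection 1 gave -1.26 points, and leaving out each of the other libraries in turn gave -1.82 to -3.58 points. Goblet-like cells gave a difference of -3.12 points (p = 0.2 by the same exact test, adjusted 0.7), again with both resection libraries lower than every sham library, and -2.36 and -2.99 points inside the sets. The values in goblet-like cells rest on 31 to 202 cells per library. The summed stress and RNA quality list of goblet-like cells was at 13103, 10840 and 12304 CPM in sham and 20616 and 16035 CPM in resection, without overlap, and its part in the share was not tested. Inside the sets the difference was 2.19 and 0.089 points in crypt progenitor-like cells and 1.76 and 0.475 points in immature enterocyte-like cells. In Paneth-like cells the difference was 0.14 points, and over all epithelial cells it was -0.77 points (exact permutation p = 1 and 0.9).

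Along the score, both resection libraries were below the sham range in bins 4 and 5. The differences were -2.46 points and -2.83 points (exact permutation p = 0.1 for each, the smallest possible, adjusted p = 0.25 over 5 bins). Inside the sets they were -2.73 and -1.95 points in bin 4 and -3.07 and -2.38 points in bin 5. In bin 1 the difference was -0.21 points (p = 0.9 by the same exact test). The bins held different mixes of classes in different libraries. Immature enterocyte-like cells were 14%, 5.51% and 5.501% of bin 4 in sham, and 8.504% and 4.007% in resection. In bin 5 they were 9.5%, 2.45% and 2.55% in sham, and 2.64% and 1.92% in resection. Enterocyte-like cells were 14.9%, 19.4% and 1.76% of bin 1 in sham, and 10.1% and 17.5% in resection. The part of this mix in the bin differences was not tested. The change from immature to enterocyte-like cells was 8.37, 11.6 and 11.1 points in the sham libraries and 12.7 and 13.6 points in the resection libraries. This difference between surgery groups, 2.79 points, did not pass its own test (exact permutation p = 0.2, adjusted p = 0.4), and neither did that of bin 1 against bin 5 (2.62 points, exact permutation p = 0.5).

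The enterocyte-like class was made of different clusters in different libraries, and this moved with the surgery value. Clusters 1 and 6 held mostly cells of resection 2 (1840 and 990), clusters 5 and 9 mostly cells of resection 1 (1262 and 966), cluster 12 mostly sham 1 (606), cluster 3 mostly sham 2 (1336) and cluster 4 mostly sham 3 (1186). Cluster 1, led by Fabp2, Cyp3a11 and Apoc3, had a share of 3.23% in resection 2 and 3.96% in the 104 cells of sham 2. Cluster 5, led by Fabp1, Lct and Apoa4, had 3.47% in resection 1.

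Several clusters had at least 20 cells in both surgery groups. In cluster 2, led by Gsta1 and Fabp6, the share was 9.22% in sham 2, 11.6% in sham 3, 9.38% in resection 1 and 8.63% in resection 2. In clusters 3, 6 and 10 the resection 2 values of 5.74%, 5.37% and 9.88% lay between those of sham 2 and sham 3. In cluster 4 the share was 8.03% in sham 3 and 7.73% in resection 2. Cluster 17, led by the interferon-response genes Isg15 and Ifit1, had 6.41% and 7.82% in sham 2 and sham 3 and 2.86% and 3.69% in resection 1 and 2. How far the mix of clusters accounts for the class value was not tested.

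The test across all genes called no ribosomal protein gene between surgery groups in any of the 7 cell groups tested (edgeR adjusted p under 0.05). Of all genes, 0% were called in crypt progenitor-like, cycling-like, immature enterocyte-like, enterocyte-like and all epithelial cells, 0.0962% in goblet-like and 0.0326% in Paneth-like cells. DESeq2 called 1 of the 81, Rpl35 in enterocyte-like cells, where it called 68 of all 10400 genes, and 0 in the other groups. Once the library set was a term, edgeR called 1, Rpl35 in goblet-like cells (adjusted p = 0.0297), where it called 29 of all 5195 genes, and 0 in the other groups.

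In enterocyte-like cells edgeR gave 7 of the 81 an unadjusted p under 0.05, where 5.14% of all genes reached it. Once the library set was a term, 34 of the 81 reached it, as did 1037 of all 10400 genes, and with DESeq2 14 and 523. The 7 were Rpl35, Rps21, Rpl6l, Rpl38, Rps29, Rps28 and Rpl36. All 81 log2 fold changes were negative (52.6% of all genes), with a median of -0.57 against -0.02 for all genes. They are parts of 1 total and not independent of each other. In 27 of the 81 both resection libraries lay below the sham range, which held for 7.47% of all genes, and in 0 they lay above it (8.23%).

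In goblet-like cells all 81 were negative as well (50.7% of all genes; median -0.38), and 22 lay below the sham range (8.03%). Rpl35 and Rpl6l had an unadjusted p under 0.05 there (4.2% of all genes by edgeR), and in the fit that holds the library set 11 of the 81 did, beside 427 of all 5195 genes. Over all epithelial cells 81 were negative (55.1% of all genes; median -0.23), and Rpl35 alone had an unadjusted p under 0.05 (2.8%) and lay below the sham range (1.93%). Once the library set was a term, 68 were negative and the median was -0.08.

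In immature enterocyte-like cells 43 of the 81 were negative (52.7% of all genes; median 0.00), Rpl7l1 lay below the sham range (3.43%) and Rplp1 above it (4.75%). In crypt progenitor-like cells 48 were negative (51.5%; median -0.02), and in cycling-like cells 51 (50.9%; median -0.02). Rpl35 lay below the sham range in both (3.76% and 3.88% of all genes) and no member above it (5.84% and 5.65%). Without TMM, which moved the median of all genes to at most 0.05 in these 3 groups, the medians were 0.04, 0.02 and 0.01, so their sign changed with the scaling. With the set as a term it changed as well: 16, 19 and 20 of the 81 were negative, and the medians were 0.14, 0.12 and 0.11. In Paneth-like cells 71 were negative (50.5%; median -0.14), Rpl35 lay below the sham range (3.66%) and none above (7.1%), but without TMM only 14 were negative and the median was 0.12, where that of all genes was 0.14. With the set as a term 35 were negative and the median was 0.02. In these 4 groups 0 members had an unadjusted p under 0.05 by edgeR, against 1.45% of all genes in immature enterocyte-like, 1.66% in crypt progenitor-like, 1.61% in cycling-like and 1.96% in Paneth-like cells.

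The size of the enterocyte-like value depended on resection 1. Without this library the median of the 81 genes was -0.14 with 69 negative, without resection 2 it was -1.19, and without sham 3 it was -0.34. In goblet-like cells it was -0.06 without resection 1, -0.72 without resection 2 and -0.24 without sham 3. Over all epithelial cells it was 0.09 without resection 1, -0.01 without sham 3, -0.46 without sham 1 and -0.61 without resection 2.

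Rpl35, a large subunit protein near the tunnel exit, had the lowest p of the set in 6 of the 7 cell groups; in Paneth-like cells it was Rpl7l1. Its enterocyte-like level was 568, 447 and 426 CPM in the sham libraries and 199 and 183 CPM after resection, so the groups did not overlap (log2 fold change -1.34, SE 0.28, unadjusted p = 0.00187, edgeR adjusted p = 0.431). Over the alternatives its adjusted p in these cells ran from 4.87e-05 with DESeq2 to 0.99999. In immature enterocyte-like cells its level was 1609, 1389 and 1190 CPM in sham and 1280 and 724 CPM in resection, and the groups overlapped (log2 fold change -0.55, edgeR adjusted p = 0.9997).

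The next 4 genes by p in enterocyte-like cells were Rpl6l, Rps21, Rps29 and Rps28, with log2 fold changes of -1.05, -0.81, -0.95 and -0.94 and edgeR adjusted p between 0.834 and 0.887. Rps29, a small zinc-binding small subunit protein, had 1986, 2249 and 1615 CPM in sham enterocyte-like cells and 1176 and 898 CPM in resection, without overlap. Rps28 levels were 1233, 983 and 709 CPM in the sham libraries and 639 and 397 CPM after resection, also without overlap. Rps27l was the gene nearest to 0 (-0.25, SE 0.55), and its groups overlapped.

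**Figure D5:**
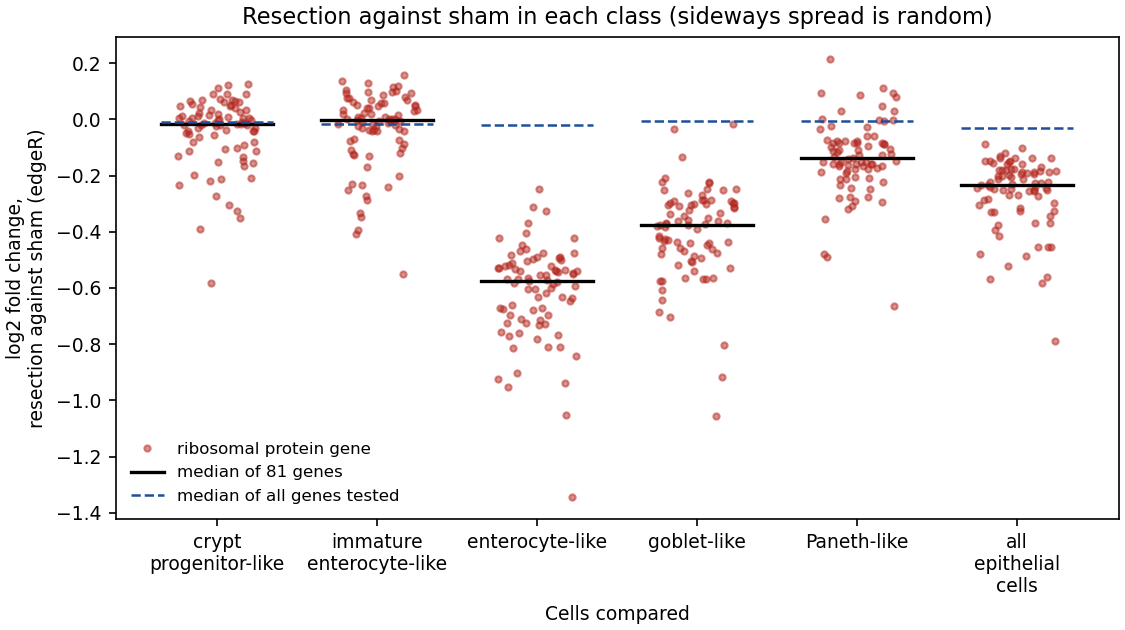
Log2 fold change of the 81 genes between resection and sham (vertical axis, edgeR) in 6 groups of cells (horizontal axis); each point is 1 gene, the black line is their median and the dashed line the median of all genes tested. The points centre on 0.00 in immature enterocyte-like cells and all lie below 0 in enterocyte-like and goblet-like cells; none passed the adjusted threshold.

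Other values of enterocyte-like cells are given here, and not all of them follow the order of the shares. The summed Paneth marker level in enterocyte-like cells was 4872, 7124 and 1513 CPM in sham and 2746 and 2676 CPM in resection. The 9 T cell markers together were at 49.6, 56.3 and 28.0 CPM in sham and 16.7 and 49.1 CPM in resection, and all 9 had a UMI in each library. Median mitochondrial percentages of enterocyte-like cells were 14.5, 8.998 and 7.76 in sham and 12.3 and 9.58 in resection. The summed stress and RNA quality list was at 19456, 15362 and 17005 CPM in sham and 24722 and 18942 CPM in resection. The part of any of these in the shares was not tested. The lists of ribosome biogenesis, elongation and mitochondrial ribosome genes had surgery medians of -0.31, -0.33 and -0.21 in enterocyte-like cells. No gene of any list was called by edgeR, as was 0% of all genes. An unadjusted edgeR p under 0.05 was reached by 3 of 31, 1 of 21 and 0 of 76 genes tested, beside 5.14% of all genes.

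A further difference between libraries crossed the surgery groups. In immature enterocyte-like cells, the mean level in sham 1 and resection 1 against the other 3 libraries had a median log2 ratio of -0.42 over 80 genes with a known coding length, and 67 of them were negative. Among these 80 genes the ratios ran from -1.11 for Rpl10 to 0.63 for Rps28. Rpl6l, which had no coding length in the annotation used, had a higher ratio of 0.95. Its mean level was 265 CPM in sham 1 and resection 1 and 137 CPM in the other 3 libraries. That is the direction of the pseudogene copies described below, and whether Rpl6l is such a copy was not tested. Rpl10, a late-joining large subunit protein, had 902 CPM in sham 1 and 1215 CPM in resection 1, but 2261, 2483 and 2120 CPM in sham 2, sham 3 and resection 2. Rpl41, which encodes a very short peptide and took the most UMIs of the 81, went the other way with 8127 and 8912 CPM against 6699, 6151 and 5518 CPM.

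Genes with short coding sequences stood nearer to 0: the median log2 ratio was -0.16 in the 27 genes with the shortest coding length, -0.53 in the middle 26 and -0.56 in the 27 longest. Across the 80 genes, which are not independent replicates and share these 5 libraries, Spearman's rho between coding length and the log2 ratio was -0.40.

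The same libraries also differed in counts given to near-identical copies. By symbol, the matrices list 17 such copies of member genes (pseudogenes with a -ps symbol and Rps27rt), and 13 had at least 50 UMIs in immature enterocyte-like cells. Copies under other symbols were not counted. In all 13, the copy's part of the UMIs of copy plus parent was higher in both sham 1 and resection 1 than in each of the other 3. For Rpl10-ps3 and Rpl10 it was 26.5% in sham 1 and 18.0% in resection 1, against 4.03%, 3.67% and 3.88%. For Rps27rt and Rps27 it was 26.2% and 20.5%, against 8.99%, 8.39% and 7.63%. The levels of parents with such a copy are therefore uncertain between the sets. The 17 copies together held 0.413% of UMIs in sham 1 and 0.337% in resection 1, against 0.165%, 0.162% and 0.138%. The source of the difference between the sets was not tested.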

How the data were processed

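The authors deposited 1 matrix of unnormalized UMI counts for each library, made with Cell Ranger and 10x 3' chemistry per the labels, which give the software version only with a question mark. The submitters' processing notes name mm10 and GRCm38; the annotation is not given in the sources used here. Cells needed 500 detected genes and no more than 20% mitochondrial counts, and doublets were removed per library by a score against simulated doublets (0.8% of cells per 1000 cells). Leiden clustering (resolution 1, 30 principal components, 2000 variable genes, 20 neighbours) left out the ribosomal protein genes and their pseudogene copies with Rpl or Rps symbols, the translation lists and mitochondrial genes, with no batch correction. Clusters were named from marker lists, and names rebuilt in this way can differ from the study's.

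The share of UMIs was summed per library and class and compared with exact permutation tests. Gene counts summed in the same way were tested with edgeR 4.0.16 (TMM, filterByExpr, quasi-likelihood F-test, library as a block along the axis, Benjamini-Hochberg over all genes tested), with DESeq2 1.42.0 as an alternative. CPM divides by all UMIs of the cells summed. Coding lengths came from the GENCODE annotation of GRCm38. On simulated data at the real depth, the surgery test in enterocyte-like cells recovered 8.08% of 2-fold and 72.2% of 4-fold changes among 10400 genes, and the immature against enterocyte-like test 95.9% and 100% among 9681. Classes with under 20 cells in a library in the main clustering were not tested. For the share, this limit was not applied again under the alternative clusterings.

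The genes named were drawn from those with the most and fewest UMIs, the 5 largest and smallest changes along the axis, the 5 lowest p between surgery groups, genes outside the sham range, paralog pairs, stalk genes and the 3 lowest p of each translation list. The members and lists were chosen with earlier results of these data known.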

Additional observations from a re-analysis of the deposited data

How the results depend on the processing

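The crypt-to-villus differences in share kept their direction under all alternatives run, and so did the lower share of enterocyte-like cells after resection. That of goblet-like cells kept it wherever it could be computed. With at most 10% mitochondrial counts it could not, as sham 1 kept 0 goblet-like cells and resection 1 kept 3. Surgery differences near 0 changed sign. Without doublet removal the immature enterocyte-like difference was -0.574 points, and the surgery difference in the step from crypt progenitor-like to immature cells 0.618. With at most 10% mitochondrial counts the values were -1.03 (crypt progenitor-like), 1.004 (all epithelial) and 0.156 (bin 2). Under that limit sham 1 kept only 6 stem-like and 2 cycling-like cells and at most 6 in any enterocyte-like cluster. It kept 211 cells in a Paneth-like cluster, so its values in the other classes and in the bins rest on few cells there. Scaling genes within each library before clustering gave 0.0354 for cycling-like cells. Leaving the 50 most abundant other genes out of the total, chosen after seeing the data, gave 0.0774 (cycling-like), -0.316 (Paneth-like) and 0.0428 (bin 1). Inside sham 1 and resection 1 the values were 1.95 (cycling-like), 1.69 (all epithelial), -0.0524 (Paneth-like), 2.81 (bin 1) and 0.421 (the crypt-to-immature step). The labels number libraries 1 and 2 in both surgery groups but do not say that the numbers pair them. With this replicate block the values were 1.12 (cycling-like), 0.929 (all epithelial), 2.02 (bin 1) and 0.0541 (the crypt-to-immature step), and edgeR called Rpl35 in enterocyte-like cells (152 of all 10400 genes) and 4 members, Rpl35, Rpl38, Rps29 and Rps28, in goblet-like cells (118 of all 5195 genes); 1 of 81 is no larger a share than all genes gave. Under the block 17 members in enterocyte-like cells had an unadjusted p under 0.05 (1007 of all genes), and 16, 18 and 17 were negative in immature enterocyte-like, crypt progenitor-like and cycling-like cells.

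Leaving out 1 library at a time gave -2.08 to 2.22 points in crypt progenitor-like, -2.15 to 2.00 in cycling-like, -1.25 to 1.98 in immature cells, -0.675 to 0.950 in Paneth-like cells and -2.66 to 0.929 in all epithelial cells, -2.48 to 2.02 in bin 1 and -0.920 to 0.239 for the crypt-to-immature step. Rpl6l in immature enterocyte-like cells ran from -0.755 to 0.0902 on the log2 scale. Rps27l ran from -0.0588 to 0.0446 between immature and enterocyte-like cells and from -0.0394 to 0.135 between bins 1 and 5; the first was 0.00288 with DESeq2 and 0.325 without TMM. DESeq2 called 1 member in enterocyte-like cells (68 of all 10400 genes), and the library set as a term 1 in goblet-like cells (29 of all 5195). Over the alternatives, all genes called between surgery groups numbered 0 to 152 in enterocyte-like, 0 to 136 in immature and 0 to 118 in goblet-like cells, 0 to 54 in Paneth-like, 0 to 53 in cycling-like and 0 to 20 in crypt progenitor-like cells, and 0 to 225 over all epithelial cells. The cause of these changes was not tested. The number of libraries, 5, limits every surgery test.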
